A study of Mus musculus with 4 samples.

Results

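The genes described here are 10 components and targets of canonical Wnt signaling, read in 4 mouse RNA-seq libraries of which 3 came from cells treated with the GSK3 inhibitor CHIR99021. They were chosen by name for their roles, with no threshold on measured values although earlier results of these data were known, and are 10 of the 37620 genes in the deposited count tables. Axin2, Nkd1, Notum and Rnf43 are feedback inhibitors, Sp5 is a target transcription factor, Lgr5 is an R-spondin receptor, and Lef1, Tcf7, Tcf7l1 and Tcf7l2 are the 4 TCF/LEF DNA-binding factors. The gene written Tcf3 in much of the stem cell literature is Tcf7l1 here, and not the E-box factor that now carries the symbol Tcf3.

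The study asked how mouse embryonic stem cells (mESCs) respond to combinations of signaling inputs, and measured poly-A RNA by strand-specific paired-end sequencing. R1 mESCs, an established line kept without feeders in serum-containing medium, were cultured for 2 days in 3 media without LIF. The first (2i-L, labelled 2i) held 3 µM CHIR99021 and 1 µM PD0325901, a MEK inhibitor. The second (2iJ, labelled 2i-Jaki) held the same inhibitors and 2.0 µM JAK inhibitor. The third (2iJ+B-A, labelled 2i-Jaki-BMP-Alk5i) held those of 2iJ with 10 ng/ml BMP4 and 10 µM ALK5 inhibitor II, which blocks Activin and Nodal receptors. The fourth library was the trophoblast stem cell line F4 (TSC), also labelled day 2 but with no treatment in its labels. Each condition had 1 library from 1 line, so no difference below has a replicate check, no test was possible, and every interval covers counting error only. No library lacked CHIR99021 in the R1 line, so the effect of CHIR99021 itself was not measured, and in TSCs the cell type and the medium cannot be told apart.

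Gene counts ranged from 33913984 to 36964392 per library, so 3 counts corresponded to 0.0799 to 0.0902 CPM (gene counts scaled to a common library size). A level of 3 counts is about the 1-sided 95% upper limit for a count of 0, whereas the intervals below are 2-sided. Cell identity was checked on marker lists. The 6 pluripotency markers summed to 3240 CPM under 2i-L, 2780 under 2iJ, 1870 under 2iJ+B-A and 455 in TSCs, and the 6 trophoblast stem cell markers to 173, 163, 326 and 1260 CPM. Elf5, which defines trophoblast stem cells, was at 298 CPM in TSCs and at most 0.133 CPM in the R1 libraries, and Pou5f1 (Oct4) was at 1.34 CPM in TSCs and at least 658 CPM in the R1 libraries. Not all pluripotency markers followed Pou5f1, since Sox2 was still at 154 CPM in TSCs and Utf1 was higher there, at 174 CPM, than in the R1 libraries (34.5 to 66.1 CPM). The 9 fibroblast markers summed to 12.7 CPM in TSCs and 40.8 to 50.0 CPM in the R1 libraries, and Col1a2, Dcn and Lum were at 0 in TSCs.

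In canonical Wnt signaling, GSK3 and a complex scaffolded by Axin proteins phosphorylate β-catenin and mark it for destruction. Wnt ligands bound to Frizzled and LRP receptors, or inhibition of GSK3, let β-catenin accumulate and bind TCF/LEF proteins on DNA, and several of the genes that are then transcribed encode inhibitors of the same pathway. In mESCs, Tcf7l1 is known mainly as a repressor of pluripotency genes whose repression is relieved by β-catenin, which is one basis for the use of CHIR99021 in 2i media.

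TCF/LEF proteins bind short DNA elements built on the letters CTTTGAT. RefSeq promoter windows were held for 8 of the 10 genes, in 14 windows because some genes have several starts, and only the 250 bases before each start (GRCm38.p6) were searched, on both strands. The letters CTTTGAT or their reverse complement ATCAAAG were in 1 of the 14 windows, that of Sp5, against 3.21% of all 32851 windows of this length. The variant CTTTGAA, or TTCAAAG, was in 0 of the 14, against 4.46% of all windows. The letters GGCGCC, which are their own reverse complement and form a core bound by the BMP-activated SMAD1 and SMAD5, were in 5 of the 14 windows, against 9.59% of all. These 5 windows belong to 3 genes, Lef1, Tcf7 and Tcf7l2, and the Lef1 windows among them overlap and hold the same site, so they are not independent. GGCGCC consists of G and C only, and 64.4% to 76.0% of the bases of these 5 windows are G or C. The share of all windows was not matched for this. CTTTGAT and CTTTGAA share their first letters and differ in the last, so no run of letters was counted for both. Sp5, Nkd1 and Axin2 are printed because they are target genes that were lower, higher and nearly level, respectively, when BMP4 and the ALK5 inhibitor were added. The windows lie at chr2:70474673-70474922 for Sp5, chr8:88527383-88527632 for Nkd1 and chr11:108920099-108920348 for Axin2, all on the + strand, and capitals mark CTTTGAT, whose first base lies 104 bases before the Sp5 start. The windows of Nkd1 and Axin2 hold none of the 3 motifs.
Sp5: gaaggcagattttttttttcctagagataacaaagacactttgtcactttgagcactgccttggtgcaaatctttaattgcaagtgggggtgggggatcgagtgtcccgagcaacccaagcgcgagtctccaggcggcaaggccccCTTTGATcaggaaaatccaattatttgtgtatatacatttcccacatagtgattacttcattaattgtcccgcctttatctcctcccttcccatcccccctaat
Nkd1: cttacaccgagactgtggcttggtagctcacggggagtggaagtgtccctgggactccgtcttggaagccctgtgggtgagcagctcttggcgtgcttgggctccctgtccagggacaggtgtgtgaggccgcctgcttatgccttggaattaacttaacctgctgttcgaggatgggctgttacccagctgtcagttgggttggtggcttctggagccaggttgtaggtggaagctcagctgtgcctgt
Axin2: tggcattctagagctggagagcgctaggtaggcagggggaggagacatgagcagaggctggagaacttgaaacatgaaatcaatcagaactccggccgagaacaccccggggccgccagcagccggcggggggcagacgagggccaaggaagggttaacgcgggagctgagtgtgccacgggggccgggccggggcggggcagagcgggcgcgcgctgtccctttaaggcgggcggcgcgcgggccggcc
A match is a string of letters and was not tested as a binding site.

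The feedback inhibitors did not move together across the 3 R1 media: Axin2 differed little, Notum was lower at each step, and Nkd1 was more than 2-fold higher once BMP4 and the ALK5 inhibitor were added. Axin2 (ENSMUSG00000000142, NCBIM37 chromosome 11, 108781663 to 108812097, + strand) encodes an Axin scaffold of the β-catenin destruction complex and is widely used as a readout of the pathway. Its level was 49.6 CPM under 2i-L (1650 counts), 58.0 under 2iJ (1991 counts), 66.5 under 2iJ+B-A (2500 counts) and 4.22 in TSCs (148 counts). The 3 R1 libraries lay within 1.34-fold of each other, and the TSC library was far below all of them. The log2 ratio, here always that of CPM + 0.5, was 0.22 for 2iJ against 2i-L (95% Clopper-Pearson interval 0.13 to 0.32) and 0.20 for 2iJ+B-A against 2iJ (0.11 to 0.28). Both intervals exclude 0, although neither ratio reached the 2-fold difference that is used below to call a gene higher or lower.

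Notum (ENSMUSG00000042988, chromosome 11, 120515102 to 120522489, − strand) encodes a secreted enzyme that removes the lipid from Wnt ligands and so inactivates them. It was at 47.4 CPM under 2i-L (1578 counts), 29.2 under 2iJ (1001 counts), 15.1 under 2iJ+B-A (568 counts) and 1.28 in TSCs (45 counts). The level was thus lower in each medium of the series than in the one before. The log2 ratio was −0.69 for 2iJ against 2i-L (−0.81 to −0.58) and −0.92 for 2iJ+B-A against 2iJ (−1.07 to −0.78), neither of which reached 2-fold. Between the ends of the series, 2iJ+B-A was 3.14-fold lower than 2i-L (2.85 to 3.46). Exons of Notum overlap those of 4732444A12Rik and Gm11768 on the opposite strand, over 29.4% and 8.72% of their length, and counts made without regard to strand held only 51.1% to 56.2% of the strand-specific counts used here.

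Nkd1 (ENSMUSG00000031661, chromosome 8, 91045243 to 91118786, + strand) encodes Naked cuticle 1, an intracellular antagonist that acts on Dishevelled. It was at 2.07 CPM under 2i-L (69 counts), 2.56 under 2iJ (88 counts), 8.92 under 2iJ+B-A (335 counts) and 4.22 in TSCs (148 counts). The 2iJ+B-A library stood above the other 3. Its CPM was 3.48-fold that of 2iJ (2.74 to 4.45), and with 0.5 CPM added the log2 ratio was 1.62 (1.32 to 1.92). The interval of that ratio for 2iJ against 2i-L, −0.14 to 0.64, included 0.

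Rnf43 (ENSMUSG00000034177, chromosome 11, 87476224 to 87549041, + strand) encodes a membrane ubiquitin ligase that clears Frizzled receptors from the cell surface. It was at 4.03 CPM under 2i-L, 4.89 under 2iJ, 7.21 under 2iJ+B-A and 3.13 in TSCs (134, 168, 271 and 110 counts). The order of the 4 values was that of Axin2, with the highest value under 2iJ+B-A and the lowest in TSCs. The log2 ratio was 0.25 for 2iJ against 2i-L (−0.05 to 0.55) and 0.52 for 2iJ+B-A against 2iJ (0.26 to 0.78).

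Sp5 and Lgr5, a target transcription factor and a target receptor, went in opposite directions after BMP4 and the ALK5 inhibitor. Sp5 (ENSMUSG00000075304, chromosome 2, 70312980 to 70315786, + strand), whose promoter window holds the TCF letters printed above, was at 7.01 CPM under 2i-L (233 counts), 4.40 under 2iJ (151 counts), 1.81 under 2iJ+B-A (68 counts) and 0.0285 in TSCs (1 count). Like Notum, it was lower in each medium than in the one before. The log2 ratio was −0.62 for 2iJ against 2i-L (−0.89 to −0.34) and −1.08 for 2iJ+B-A against 2iJ (−1.43 to −0.73), and 2iJ+B-A was 3.87-fold lower than 2i-L (2.94 to 5.15).

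Lgr5 (ENSMUSG00000020140, chromosome 10, 114887367 to 115024836, − strand), a receptor for the R-spondins that marks stem cells of the intestine and other epithelia, was at 0.451 CPM under 2i-L (15 counts), 0.582 under 2iJ (20 counts), 13.9 under 2iJ+B-A (524 counts) and 0.0855 in TSCs (3 counts). A single library, 2iJ+B-A, held nearly all of the Lgr5 counts. Its CPM was 23.9-fold that of 2iJ (15.3 to 39.5). On the log2 scale with 0.5 CPM added, which understates the change of a gene this low in 2iJ, the ratio was 3.74 (3.35 to 4.09), and it was 4.36 with 0.1 CPM and 3.24 with 1 CPM added. Whether more cells had Lgr5 RNA or each cell had more of it cannot be told apart in bulk RNA, and the same holds for every level given here.

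Of the TCF/LEF genes, Tcf7l2 was highest under 2iJ+B-A, Tcf7 and Tcf7l1 were highest in TSCs, and Lef1 was lowest there. Lef1 (ENSMUSG00000027985, chromosome 3, 130813389 to 130927274, + strand), which is both a TCF/LEF factor and a target of the pathway, was at 8.51 CPM under 2i-L, 12.5 under 2iJ, 12.9 under 2iJ+B-A and 0.427 in TSCs (283, 429, 485 and 15 counts). The 2 libraries with JAK inhibitor were close to each other, with a log2 ratio of 0.05 (−0.14 to 0.23), and 2iJ was above 2i-L by a log2 ratio of 0.53 (0.32 to 0.74). Tcf7l2 (ENSMUSG00000024985, chromosome 19, 55816300 to 56008144, + strand), also named Tcf4 in the Wnt literature, was at 12.4 CPM under 2i-L, 12.7 under 2iJ, 18.8 under 2iJ+B-A and 9.86 in TSCs (413, 437, 708 and 346 counts). It was nearly level between 2i-L and 2iJ, at a log2 ratio of 0.03 (−0.16 to 0.22), and higher under 2iJ+B-A than under 2iJ by 0.55 (0.38 to 0.72).

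Tcf7 and Tcf7l1 were the most abundant of the 10 genes per kilobase of exon. Tcf7 (ENSMUSG00000000782, chromosome 11, 52065873 to 52096681, − strand), also named Tcf1 and mostly an activating partner of β-catenin, was at 65.1 CPM under 2i-L, 59.0 under 2iJ, 51.0 under 2iJ+B-A and 74.0 in TSCs (2166, 2025, 1916 and 2599 counts). Tcf7l1 (ENSMUSG00000055799, chromosome 6, 72576372 to 72739248, − strand), the repressor described above, was at 82.6 CPM under 2i-L, 98.9 under 2iJ, 90.7 under 2iJ+B-A and 131 in TSCs (2746, 3397, 3409 and 4601 counts). For both genes TSCs had the highest value. In the R1 media the log2 ratios were small, −0.14 for Tcf7 and 0.26 for Tcf7l1 for 2iJ against 2i-L, and −0.21 and −0.12 for 2iJ+B-A against 2iJ, with intervals that excluded 0. Gene-level counts do not separate isoforms, such as the short forms of Tcf7 and Lef1 that lack the β-catenin binding end.

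**Figure D1:**
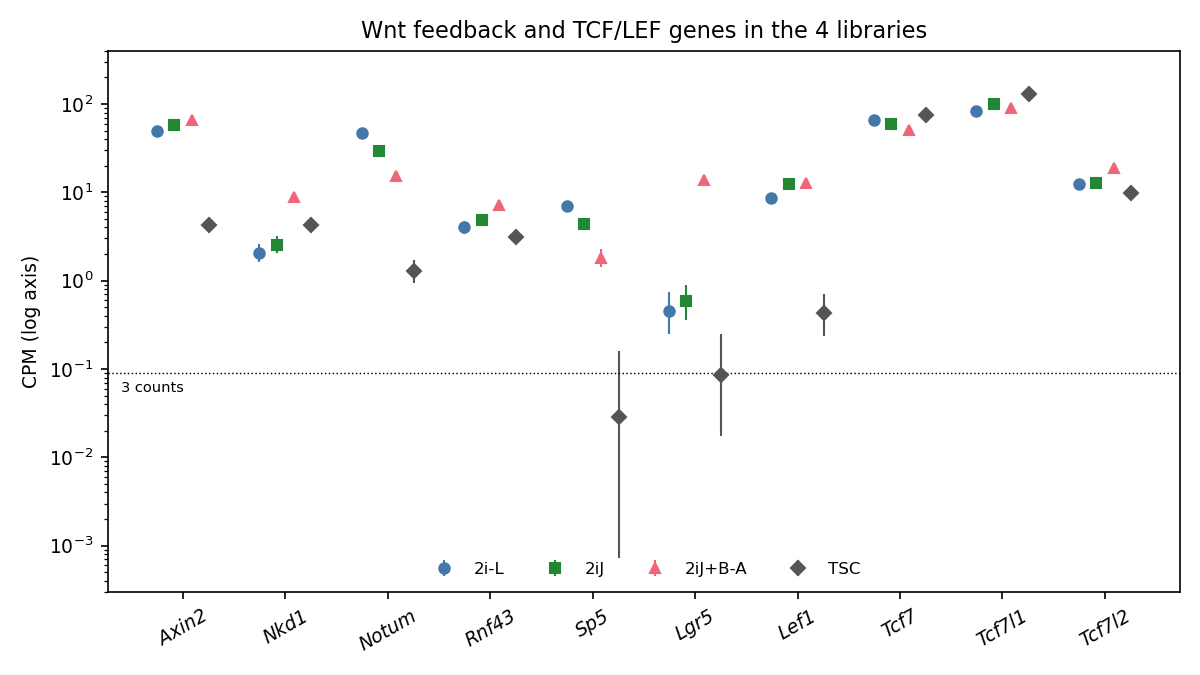
Level of each gene (CPM, log axis) in the 4 libraries, 1 library per condition; vertical lines are exact 95% Poisson intervals and the dotted line is the CPM of 3 counts in the library where it is highest, 0.0902. In CPM, Axin2, Notum, Sp5, Lef1 and Lgr5 were lowest in TSCs by more than 2-fold, with 3 counts or fewer there for Sp5 and Lgr5. Lgr5 reached 13.9 CPM under 2iJ+B-A alone, and Tcf7 and Tcf7l1 were at 51.0 CPM or above in every library.

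Counted over the group, none of the 10 genes differed by 2-fold after JAK inhibition and 3 did after BMP4 and the ALK5 inhibitor. A gene was called when its log2 ratio was 1 or more, or −1 or less. The 14263 genes that reached 1 CPM in any library were compared, and all 10 genes were among these. Lgr5 reached 1 CPM under 2iJ+B-A alone, so it passed this filter only through the library where it was high. For 2iJ against 2i-L, 0 of the 10 were called, against 1.23% of all genes higher and 0.918% lower. At these shares 0 of 10 is near the background. The median log2 ratio of the 10 was 0.20, against 0.00 over all genes tested. For 2iJ+B-A against 2iJ, Lgr5 and Nkd1 were higher, against 5.81% of all genes, and Sp5 was lower, against 3.17%, with a median of 0.12 against 0.00. The 2 comparisons share the 2iJ library, so an error in that library enters both with opposite sign. Sp5 was close to the limit, and with 1 CPM added in place of 0.5 it was no longer called.

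**Figure D2:**
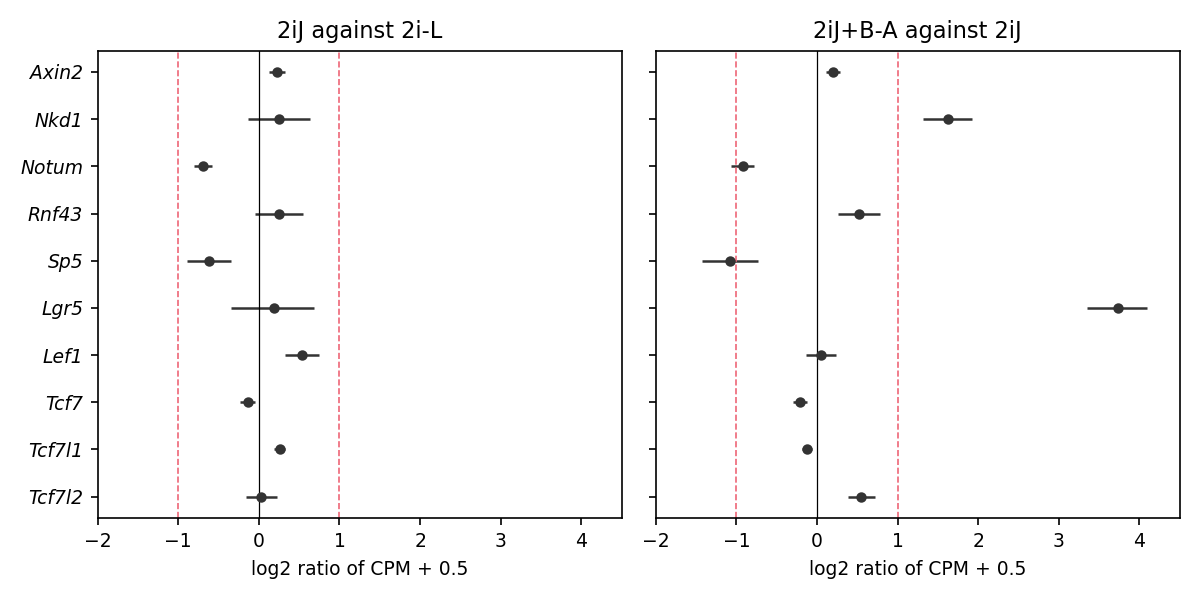
Log2 ratio of CPM + 0.5 of each gene, 2iJ against 2i-L (left) and 2iJ+B-A against 2iJ (right), with 95% Clopper-Pearson intervals (counting error only); dashed lines mark 2-fold and the panels share the 2iJ library. On the left all points lie between −0.69 and 0.53, and on the right Lgr5 (3.74), Nkd1 (1.62) and Sp5 (−1.08) lie beyond 2-fold.

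Other transcripts of the pathway were examined by role in 7 lists of 104 genes, of which 88 passed the filter. Between 2iJ and 2i-L, 2 of the 88 were higher and 1 was lower, which is near the 1.23% and 0.918% of all genes. They were Ror1 and Cdx2 and, in the other direction, Cdx1. Ror1, a receptor of non-canonical Wnt ligands, was at 4.81 CPM under 2i-L and 15.6 under 2iJ. The caudal homeobox genes Cdx1 and Cdx2, both known Wnt targets, moved in opposite directions, with log2 ratios of −1.65 and 1.21.

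Between 2iJ+B-A and 2iJ, 17 of the 88 were higher and 7 were lower, against 5.81% and 3.17% of all genes. A list with 1 call, such as that of the transducers below, is near these shares. Among Wnt ligands, 4 of 12 were higher and 1 was lower, with a median log2 ratio of 0.71. Wnt7b was at 4.19 CPM under 2iJ and 18.0 under 2iJ+B-A, and Wnt4 and Wnt6 had log2 ratios of 1.56 and 1.30, whereas Wnt3, a ligand of the early epiblast, had one of −1.86. Of the receptors and R-spondin genes, 0 of 22 were higher and 3 were lower (median −0.15), including Porcn, the enzyme that attaches the lipid to Wnt ligands, at −1.63. Lgr4, a relative of Lgr5 that also binds R-spondins, was at 72.1 CPM under 2i-L, 81.2 under 2iJ, 21.4 under 2iJ+B-A and 30.7 in TSCs. Lgr4 and Lgr5 were thus called in opposite directions between 2iJ+B-A and 2iJ, with log2 ratios of −1.90 and 3.74.

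Of the secreted and membrane inhibitors, 4 of 10 were higher and 0 were lower (median 0.20). Frzb, among these 4, reached 1 CPM under 2iJ+B-A alone (2.13 CPM), so it passed the filter only through the library where it was high. Dkk1, which blocks the LRP co-receptors and is itself a Wnt target, was at 3.70 CPM under 2i-L, 5.27 under 2iJ, 26.9 under 2iJ+B-A and 2.16 in TSCs. Dkk3 and Apcdd1 had log2 ratios of 1.75 and 1.18. The intracellular transducers, among them Ctnnb1 (β-catenin), Gsk3a, Gsk3b and Axin1, were mostly level: 1 of 13 was higher and 0 were lower (median 0.15), and Ctnnb1 itself ranged from 840 to 955 CPM over the 4 libraries. Of the cofactors of TCF proteins, 2 of 12 were higher (median −0.14), the co-activator Bcl9l at 1.66 and the co-repressor Tle2 at 1.27.

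Other reported β-catenin/TCF targets went both ways, with 6 of 14 higher and 3 lower (median 0.60). Ascl2, a target in intestinal stem cells that is also required in trophoblast, was at 2.42 CPM under 2iJ and 22.7 under 2iJ+B-A. Cdx2 was at 6.70 and 33.6 CPM, and the adhesion receptor Cd44 at 2.15 and 7.29 CPM. The 3 lower targets were T (2.85 and 0.16 CPM), Sp8 (4.22 and 0.532 CPM) and Fgf8 (1.25 and 0.0532 CPM). All 3 were below 5 CPM in both libraries, and Fgf8 passed the filter through 2iJ alone. Of the 5 genes known to be repressed by Tcf7l1 in mESCs (Esrrb, Klf2, Tfcp2l1, Nr5a2 and Nanog), 0 were called in either comparison among R1 media. With 1.23% and 0.918% of all genes called in the first and 5.81% and 3.17% in the second, 0 of 5 is near the background. Their median log2 ratio was −0.28 for 2iJ against 2i-L and −0.31 for 2iJ+B-A against 2iJ. Markers of other cell types differed over the same media, but not all in the same direction within a list. Summed trophoblast markers were at 163 CPM under 2iJ and 326 under 2iJ+B-A. Hand1 (1.31 and 104 CPM), Esx1 (2.56 and 72.8 CPM) and Cdx2 were higher, whereas Eomes was lower (10.7 and 2.74 CPM), Tfap2c was at 142 and 113 CPM, and Elf5 stayed at 0.133 CPM or below. Primitive endoderm markers summed to 17.5 and 37.5 CPM. Streak and mesoderm markers summed to 4.63 and 6.04 CPM, with Foxf1 higher (0.0582 and 3.65 CPM) and T (Brachyury), the main streak marker, lower (2.85 and 0.16 CPM). Evx1 was at 0.466 and 1.25 CPM and Mixl1 at 0.728 and 0.479 CPM. The part of these cell types in the levels of Lgr5, Nkd1 and Sp5 was not tested. Cdx2 is in the trophoblast list as well as in the target list, and T and Tbx6 are in both the streak and mesoderm list and the target list.

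**Figure D3:**
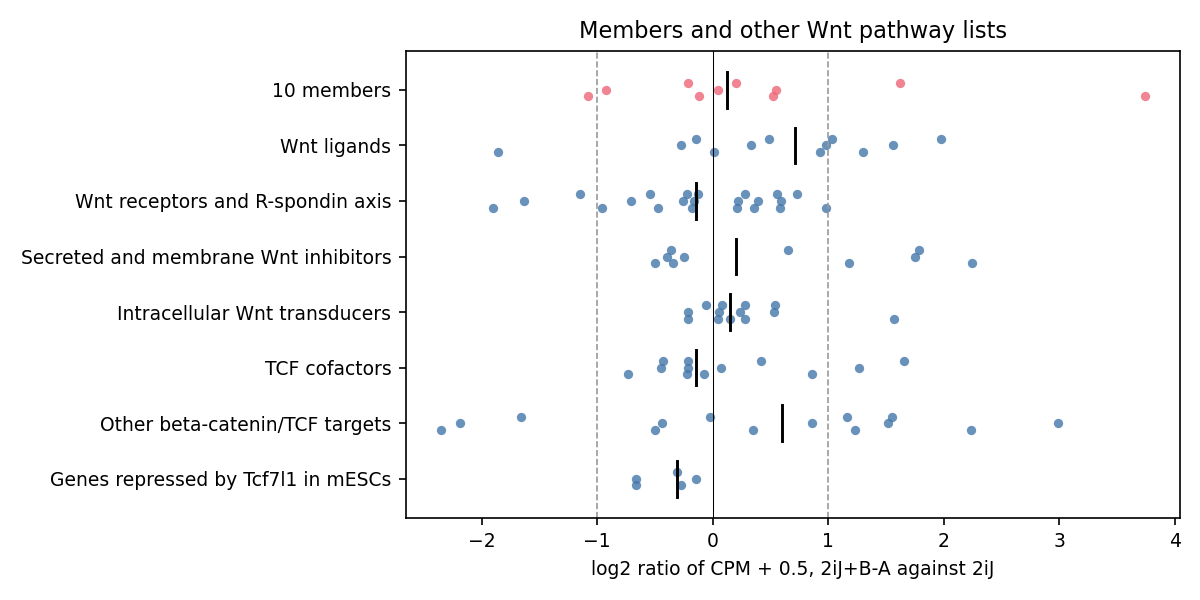
Log2 ratio of CPM + 0.5, 2iJ+B-A against 2iJ, for the 10 genes (top, pink) and for the genes of 7 other Wnt lists (blue) that passed the filter; each point is a gene, vertical bars are list medians and dashed lines mark 2-fold. Medians lie between −0.31 (genes repressed by Tcf7l1) and 0.71 (Wnt ligands), and the point farthest to the right is Lgr5.

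Levels of different genes were compared per kilobase of exon. In every library Tcf7l1 and Tcf7 had the first and second highest CPM per kb of the 10 genes. They were at 24.8 and 23.3 under 2i-L, where their intervals overlapped, and at 29.8 and 21.1 under 2iJ, 27.3 and 18.3 under 2iJ+B-A and 39.4 and 26.5 in TSCs, where they did not. Exons of Tcf7l1 overlap Gm15401 on the opposite strand, and its unstranded counts were 77.7% to 79.3% of the strand-specific ones. With unstranded counts Tcf7 was above Tcf7l1 under 2i-L, so their order there depends on how reads are counted. Notum was next under 2i-L and 2iJ, at 19.7 and 12.1 CPM per kb, and Axin2 next under 2iJ+B-A, at 12.1. At the other end, Lgr5 was the lowest of the 10 under 2i-L (0.0439) and 2iJ (0.0567) and in TSCs (0.00833). Under 2iJ+B-A it was at 1.36 CPM per kb, and Sp5 was the lowest at 0.862. Neighbours whose intervals overlapped were Rnf43 and Nkd1 under 2i-L and 2iJ, Tcf7l2 and Lef1 under 2iJ, and under 2iJ+B-A the pairs Tcf7l2 and Nkd1, Lef1 and Lgr5, and Rnf43 and Sp5. In TSCs the intervals of each neighbouring pair overlapped from Tcf7l2 through Nkd1, Axin2 and Notum to Rnf43, and again from Lef1 through Sp5 to Lgr5. Gene length here was the union of all exons. That was 8739 bases for Tcf7l2, 8654 for Lef1 and 10264 for Lgr5, whose longest transcripts have 4295, 3656 and 4793 bases. For Nkd1 (4459 and 4314) and Sp5 (2100 in both) the lengths were close. The order of genes at lower levels therefore depends on the length used, and it was not computed with the longest transcript.

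The summed level of the 4 TCF/LEF genes was 50.6 CPM per kb under 2i-L, 53.8 under 2iJ, 49.2 under 2iJ+B-A and 67.2 in TSCs. Tcf7l1 made up 49.1%, 55.3%, 55.5% and 58.7% of these sums and Tcf7 46.1%, 39.3%, 37.1% and 39.5%. Together the pair held at least 92.6% in every library. Tcf7l2 held 2.81%, 2.71%, 4.38% and 1.68%, and Lef1 1.94%, 2.68%, 3.03% and 0.0735%. Tcf7 had its largest share under 2i-L, Tcf7l2 under 2iJ+B-A and Tcf7l1 in TSCs, where Lef1 had its smallest.

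**Figure D4:**
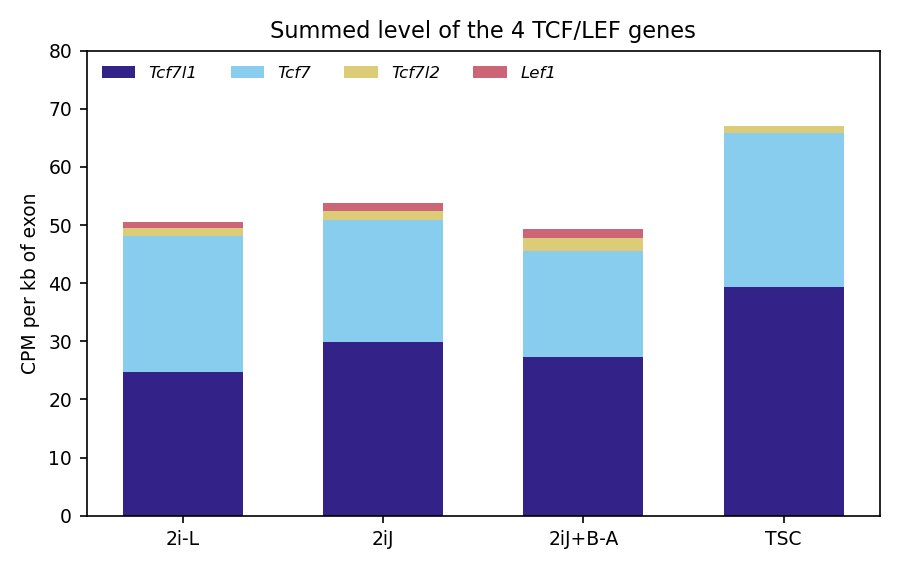
Summed level (CPM per kb of exon) of the 4 TCF/LEF genes in each library, stacked by gene, 1 library per condition. Tcf7l1 and Tcf7 fill nearly the whole of each bar, the TSC bar is the tallest at 67.2, and Lef1, at 0.0494 CPM per kb, is not visible in it.

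TSCs, for which no CHIR99021 is given, had low levels of Axin2, Notum, Sp5 and Lef1, while Tcf7 and Tcf7l1 were above their R1 levels. TSC values were set against the nearest edge of the range of the 3 R1 libraries. Of the 10 genes, 0 were higher and 4 were lower, against 13.0% and 12.2% of all genes, with a median log2 ratio of −0.51. Genes inside the R1 range were given a log2 ratio of 0. The median of 0.00 over all genes therefore says little as a background for this value. Axin2 was 11.8-fold lower than the lowest R1 library (9.94 to 14.0), Notum 11.8-fold lower (8.70 to 16.4) and Lef1 19.9-fold lower (11.9 to 36.1). For Sp5, with 1 count in TSCs, the ratio to 2iJ+B-A was 63.5 with a counting interval of 11.0 to 2550. Lgr5, with 3 counts in TSCs, was not called: its ratio to 2i-L was 5.28 (1.49 to 28.4), but on the log2 scale with 0.5 CPM added the difference was −0.70, and with 0.1 CPM added it was −1.57.

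The other 5 genes lay near or inside the R1 range. Nkd1 lay inside it, Rnf43 was below its lower edge by a log2 ratio of −0.32 with an interval that reached 0 (−0.65 to 0.01), and Tcf7l2 was also at −0.32 (−0.52 to −0.12). Tcf7 was above the upper edge by 0.18 (0.10 to 0.27) and Tcf7l1 by 0.40 (0.34 to 0.47). Not all feedback inhibitors therefore shared the low level of Axin2 and Notum: Nkd1 had 148 counts in TSCs, the same number as Axin2, and per kilobase the intervals of these 2 genes overlapped.

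Over the 7 other lists, 9 of 88 genes were higher in TSCs than in every R1 library and 24 were lower. Of all genes tested, 13.0% were higher and 12.2% were lower. The number of higher genes was thus near the background, as were single higher genes in the lists below. The highest ligand was Wnt7b, at 312 CPM in TSCs and at most 18.0 in the R1 libraries, and Wnt6 was at 62.1 and at most 21.3 CPM. Wnt5a, a mostly non-canonical ligand, was lower, at 0.37 CPM in TSCs and at least 1.32 in the R1 libraries. Wls and Porcn, both needed to secrete Wnt ligands, were at 4.07 and 1.28 CPM in TSCs and at least 30.7 and 12.0 in the R1 libraries. Among the receptors Fzd1 (2.55) and Fzd6 (1.67) were higher by log2 ratio and Fzd10, at 0.057 CPM in TSCs (below the level of 3 counts) and at least 4.74 CPM in the R1 libraries, was lower. By list, 2 of 12 ligands were higher and 5 lower, and 4 of 22 receptors and R-spondin genes were higher and 8 lower. Of these 4, Rspo1 and Rspo4 reached 1 CPM in TSCs alone (3.19 and 1.65 CPM). They passed the filter only through the library where they were high, so their calls are no support for a difference. Of the 10 inhibitors, 1 was higher and 2 were lower. Kremen1, which helps remove LRP co-receptors, was at 150 CPM in TSCs and at most 41.4 in the R1 libraries. The decoy Sfrp1 was at 8.89 CPM in TSCs and at least 55.9 elsewhere. Sfrp4 had 0 counts in TSCs, which by the 1-sided limit allows up to 0.0855 CPM, and at least 1.97 CPM elsewhere.

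Inside the cell, Ctnnb1 was just below the R1 range at a log2 ratio of −0.03, and Apc2, a relative of Apc, was the 1 of 13 transducers that was higher, at 2.28. Of the 12 cofactors, 0 were higher and 2 were lower. The co-repressor Tle4 was at 5.61 CPM in TSCs and at least 157 in the R1 libraries. Of the other targets 1 of 14 was higher, Myc at 2.01, and 4 were lower, among them Tnfrsf19 (−3.93), Ccnd1 (−2.46) and Ephb2 (−2.26). Of the 5 genes repressed by Tcf7l1, 3 were lower in TSCs, Nanog at −7.14, Nr5a2 at −6.89 and Klf2 at −4.49. The other genes of this list, Esrrb and Tfcp2l1, were not called, at −0.29 and −0.91, and were still at 248 and 254 CPM in TSCs. The list overlaps the pluripotent state, whose markers include Nanog and summed to 455 CPM in TSCs and 1870 or more in the R1 libraries. The part of cell type in these differences cannot be told apart from that of the medium.

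Genes with the most similar pattern to Axin2 and to Lgr5 were found by the Euclidean distance between log2(CPM + 0.5) values, centred on their mean over the 4 libraries, among 10266 other genes with at least 10 CPM in a library. The nearest to Axin2 was Epb4.1l4a, at a distance of 0.06, with 50.3, 61.8, 68.2 and 4.30 CPM in the order 2i-L, 2iJ, 2iJ+B-A, TSC. Then came 2210013O21Rik and AC113316.1 (both 0.14), Rundc3a (0.19) and Lef1 (0.22), which was the only one of the 10 genes among these 5. The nearest to Lgr5 was Slc22a3, an organic cation transporter, at 0.42, with 1.23, 2.39, 35.5 and 0.855 CPM. It was followed by Dlk1 (0.84), 1810041L15Rik (1.02), Nup62cl (1.13) and the Wnt inhibitor Dkk1 (1.17). With 4 libraries such likeness is a description of these samples.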

How the data were processed

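Poly-A RNA of 4 libraries was sequenced as strand-specific read pairs. Per the labels, the authors used CASAVA 1.8.2, cutadapt, STAR 2.4.2a and the genome build NCBIM37, and deposited raw read counts per gene. The release of their annotation is not given in the sources used here. The deposited counts of the reverse strand were used, since they were 29.1 to 32.1 times those of the opposite strand. Between 16.4% and 17.8% of reads fell in rows without a gene and were left out. Of the 37620 gene IDs, 37205 were matched to symbols in the GENCODE annotation of NCBIM37, from which exon lengths and positions were taken. Protein-coding transcripts of the 10 genes were aligned whole to the genome with minimap2 2.31 and had no alignment at another place. Matches as short as a read were not searched for.

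Counts were scaled to CPM with TMM factors from edgeR 4.0.16. Each count was given an exact Poisson interval, and each pair of libraries the log2 ratio of CPM + 0.5 with a 95% Clopper-Pearson interval. A gene with at least 1 CPM in at least 1 library was called at a 2-fold difference. With 1 library per condition, all under the same batch label, no test was made. The calculation was also run on simulated counts with counting error only, scaled by the genes known to be unchanged. That run tested neither the TMM scaling nor variation between libraries. Each list gene named was called in that comparison, within the 3 largest of its direction, with at least 5 CPM in a library compared. The exceptions were Ctnnb1, Frzb, Rspo1, Rspo4, Sp8, Fgf8 and the genes that define a list or a cell type. These exceptions were named after their values were seen. The 10 genes were chosen by name and the lists by role, both with earlier results of these data known. Alternatives covered the strand setting, DESeq2 1.42.0 size factors, library totals, the added CPM, the filter, the fold, the reference library and the gene length. Promoter sequences came from RefSeq (GRCm38.p6).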

Additional observations from a re-analysis of the deposited data

Results flagged for a closer look

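One result in counts outside the comparisons stood apart, the reads of Tcf7l2 on the strand opposite to the gene. In TSCs they made up 11.5% of the reads assigned to either strand (45 of 391, Clopper-Pearson interval 8.52% to 15.1%). In the R1 libraries the share was 3.05% in 2i-L (13 of 426), 3.10% in 2iJ (14 of 451) and 2.34% in 2iJ+B-A (17 of 725), and all 3 intervals ended at 5.16% or below. The annotation used here has no gene whose exons overlap those of Tcf7l2 on that strand. For the other 9 genes the share was at most 1.80%. The Tcf7l2 levels given above hold only the reads of its own strand, and the cause of the difference was not tested.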

How the results depend on the processing

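No library has a replicate, so the values above carry counting error only, and differences of Lgr5, Sp5 and Lef1 against TSCs rest on 15 counts or fewer there. Counting at 1.5-fold called 2 of the 10 genes in 2iJ against 2i-L (Notum and Sp5) in place of 0, and counting at 4-fold called 1 (Lgr5) in place of 3 in 2iJ+B-A against 2iJ. The lowest summed share of Tcf7 and Tcf7l1 was 92.6%, 91.5% with unstranded counts and 86.3% with the longest transcript as gene length. Adding 1 CPM left 2 calls in 2iJ+B-A against 2iJ, without Sp5, while adding 0.1 CPM gave 5 calls in TSCs, with Lgr5. Against 2i-L in place of 2iJ, 2iJ+B-A had 4 calls, with Notum, and Tcf7l1 changed sign from −0.12 to 0.14. Of 160 log2 ratios of the 10 genes under alternatives, 145 moved by less than their interval and 15 by more, and none of those called changed direction. Over all genes, 306 were called in 2iJ against 2i-L, 652 with 0.1 CPM added, 181 with 1 CPM added and 192 with at least 5 CPM required. At 1.5-fold the counts over all genes were 1325 in 2iJ against 2i-L, 2944 in place of 1280 in 2iJ+B-A against 2iJ and 5920 in place of 3592 in TSCs, and at 4-fold they were 8, 199 and 1311.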
